A study of Danio rerio with 6 samples.

Results

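The transcriptome of normal adult zebrafish proximal intestine was described from the 3 sham libraries of a series of 6. All genes in the deposited table were members. Of 12488 rows, 70 were ERCC spike-ins (synthetic RNAs added in known amounts) and 20 repeated another gene row, which left 12398 genes. The series compared sham fish with fish carrying short bowel syndrome (SBS), a loss of absorptive intestine after resection. All fish were adult male wild-type Ekk zebrafish. Sham fish had a ventral laparotomy with no manipulation of the bowel, and SBS fish lost the mid-intestine and received a proximal ostomy. In both groups the full thickness of the proximal segment was taken 2 weeks after surgery. Age is not given in the sources used here. The design text of the series mentions fed and unfed fish, but no sample label gives a feeding state, so feeding cannot be assigned to any library. For each group the 3 samples richest in RNA were chosen for sequencing, so the sham libraries are not a random draw of the sham fish. The labels give the 3 sham libraries as separate samples, and every spread below is the spread between these samples. Sham fish had undergone anaesthesia and laparotomy, and unoperated fish were not part of the series.

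The proximal intestine of the zebrafish, a fish without a stomach, is the main site of fat, sugar and peptide uptake. Absorptive enterocytes line its folds. Their brush border carries peptidases and transporters, and the cell packs absorbed fat into lipoproteins with apolipoproteins on the surface. A full-thickness piece also holds goblet and enteroendocrine cells, smooth muscle, enteric neurons, vessels and immune cells. Pancreatic tissue in this fish lies along the gut in the mesentery.

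Sham replicates 1, 2 and 3 held 44413792, 38728394 and 47142289 reads on genes. The ERCC rows took between 0.663 and 0.809% of the reads. The SBS columns 1 and 2 held equal counts in all 12488 rows and were taken as 1 library, called SBS replicate 1 here. Which of the 2 samples it belongs to could not be worked out, and every count in it is even, so its true depth is uncertain. SBS therefore had 2 libraries, with 20377652 and 38867364 reads on genes. Levels of single genes are given below as RPKM, the deposited read counts scaled to gene length and library size. Values listed in threes are in the order of sham replicates 1, 2 and 3. In bulk tissue, fewer cells of a type and less RNA per cell cannot be told apart.

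An RPKM of at least 1 in all 3 sham libraries was reached by 9115 genes. At 10 RPKM this number was 4064, at 100 it was 638, at 1000 it was 141 and at 10000 it was 8. At the other end, 2264 genes stayed under 1 RPKM in every sham library and 77 had no read in any of them. These low counts describe the deposited table only, because the table holds no row with fewer than 12 counts over its 6 columns. Protein-coding rows numbered 11810 and took 97.2, 96.5 and 97.1% of the reads.

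Expression was concentrated in few genes. In sham replicate 1, 94 genes held 50% of the reads. The number was 132 in sham replicate 2 and 91 in sham replicate 3. The 10 genes with most reads took between 18.3 and 22.3% of each library. Among the 50 genes with the highest mean RPKM, 23 encoded cytosolic ribosomal proteins, 4 pancreatic digestive enzymes, 3 chitinases, 3 apolipoproteins and 2 fatty acid binding proteins. The top 50 lists of the 3 single libraries shared 34 genes. In 42 of the 50 genes with the highest mean RPKM, the highest library was less than 2 times the lowest. In 5 it was over 5 times the lowest, and these were apoa1a, zgc:92041, prss59.2, try and prss59.1.

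**Figure D1:**
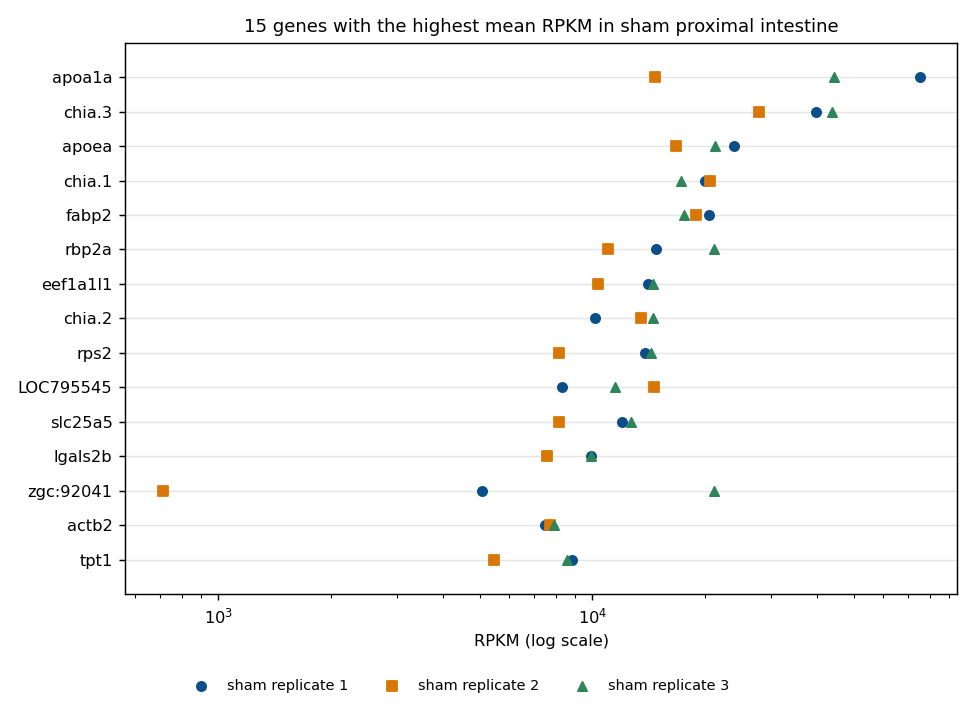
RPKM (log scale) of the 15 genes with the highest mean in the sham libraries, with 1 point per library and genes ordered by their mean. Most genes lie close together, whereas apoa1a runs from 14689 to 75077 RPKM and zgc:92041 sits far lower in sham replicate 2, at 712 RPKM, than in the other libraries.

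Genes of fat handling led the ranking. The highest mean RPKM belonged to apoa1a (chromosome 5), which encodes the main protein of high-density lipoprotein. Its RPKM was 75077, 14689 and 44407, so that sham replicate 1 was 5.11 times sham replicate 2. Next among the apolipoproteins was apoea (chromosome 19), which encodes an apolipoprotein E, at 23874, 16721 and 21291 RPKM. The apolipoprotein A-IV gene apoa4b.2 had 5491, 7259 and 4638 RPKM, and its neighbour in name apoa4b.1 had 2260, 3030 and 2443. Reads of such similar copies may have been split between them. Apolipoprotein B, the structural protein of the particles that carry absorbed fat, was represented by apobb.1 with 950, 1283 and 1486 RPKM. The gene that loads it with fat, mtp, encodes the microsomal triglyceride transfer protein and had 118, 154 and 123 RPKM. The 16 genes of apolipoproteins and lipoprotein assembly took 9.01, 5.63 and 6.57% of the reads, a mean of 7.07 ± 1.74% (SD, n = 3). Without apoa1a the other 15 genes took 3.69, 4.40 and 3.64%. The library with the lowest share thus became the library with the highest when this gene was left out. In contrast, the liver-type lipoprotein gene apoa2 stayed at 1.55, 8.48 and 3.73 RPKM.

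Fatty acid binding proteins carry fatty acids through the cytoplasm. The intestinal form fabp2 (chromosome 1) had 20505, 18924 and 17572 RPKM. The second member, fabp1b.1, had 8151, 4875 and 4257 RPKM and was highest in sham replicate 1. The remaining 7 members were far lower, from fabp3 at 35.3, 35.7 and 49.6 RPKM downwards. The ileal form fabp6 reached 3.32, 8.04 and 4.23 RPKM, and the liver form fabp10a 1.37, 9.79 and 2.83. All 9 genes together held 1.23, 1.23 and 0.895% of the reads.

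The genes between uptake of fat and its packaging were expressed at intermediate levels. The median SD of log2 CPM over 37 of them was 0.32, against 0.28 over all genes, a measure of spread described below. The fatty acid receptor and transporter cd36 had 2179, 1442 and 1959 RPKM. The acyl-CoA synthetase acsl5, which activates fatty acids, had 532, 458 and 429. Re-esterification of monoacylglycerol by mogat2 was represented by 366, 359 and 315 RPKM. The last step to triglyceride belongs to dgat1a and dgat2, with 264, 281 and 224 RPKM for the first and 189, 140 and 236 for the second. The 39 genes of this class held 0.729 ± 0.0858% of the reads (SD, n = 3). Fatty acid oxidation and ketone metabolism, with 32 genes, held 0.308 ± 0.0810%. Cholesterol synthesis, with 19 genes, held 0.0376 ± 0.0104%, and its rate-limiting enzyme was represented by hmgcra with 5.07, 3.45 and 2.39 RPKM.

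Chitinases break down chitin, the polymer of crustacean and insect shells. Just 3 of the 6 genes in the table accounted for nearly all of their reads. The gene chia.3 (chromosome 11) was second in the ranking with 39719, 28005 and 43675 RPKM. Its relatives followed with 20051, 20661 and 17239 RPKM for chia.1 and 10182, 13517 and 14555 RPKM for chia.2. The other 3 genes were low, with 66.2, 164 and 24.3 RPKM for chia.5 and under 10 RPKM in every library for chia.6 and chia.4. Rows chia.5 and chia.6 share 1 Ensembl identifier and cannot be separated with certainty. The family held 8.97, 9.41 and 9.03% of all reads, and its mean of 9.14 ± 0.240% (SD, n = 3) was among the most even of the large classes. Its single members were less even. Their median SD of log2 CPM was 0.55, against 0.28 over all genes, and 2 of the 6 had an SD over 1.

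Brush border peptidases and hydrolases, the surface enzymes that finish digestion, comprised 25 genes with 1.82, 2.15 and 1.46% of the reads. Aminopeptidase N, encoded by anpepb, had 1371, 1961 and 1178 RPKM. The meprin subunit mep1b had 1769, 1410 and 1064 RPKM, and mep1a.1 had 1115, 847 and 951. Intestinal alkaline phosphatase alpi.2 had 759, 833 and 562 RPKM, and dipeptidyl peptidase dpp4 had 270, 226 and 155. The alkaline sphingomyelinase enpp7.1 was the uneven member among these, with 97.5, 364 and 477 RPKM. Villin, the actin-bundling protein of microvilli encoded by vil1, had 1092, 1223 and 916 RPKM.

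Solute carriers move nutrients and ions across membranes. The table held 246 of them, of which 155 had at least 1 RPKM in all sham libraries, 80 had at least 10 and 14 had at least 100. Their share of reads was 3.00, 3.55 and 3.64%. The most abundant, slc25a5 with 11989, 8165 and 12676 RPKM, is the ADP/ATP exchanger of mitochondria and not a nutrient transporter. At the cell surface the highest was slc13a2, a sodium-dependent carrier of dicarboxylates and citrate, with 1817, 2599 and 3937 RPKM. The sodium-glucose transporter slc5a1 had 1017, 1361 and 1071 RPKM. The peptide transporter slc15a1b had 841, 944 and 1228 RPKM. Phosphate uptake was represented by slc34a2a with 509, 987 and 1130 RPKM. For neutral amino acids, slc6a19a.1 had 38.8, 237 and 445 RPKM, a wide spread in which sham replicate 1 stood lowest. Its paralog slc6a19b was under 0.2 RPKM in every library, with 12, 8 and 3 counts. Sulfate transport was represented by slc13a1 with 167, 256 and 257 RPKM. The sodium pump, which maintains the gradient for many of these carriers, was led by atp1b1a with 983, 1128 and 1114 RPKM and atp1a1a.4 with 685, 826 and 700. Among water channels, aqp8a.2 had 299, 337 and 225 RPKM and aqp10a had 8.10, 113 and 304.

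Vitamin A and vitamin B12 binding proteins were also among the top genes. The cellular retinol binding protein rbp2a (chromosome 15) had 14822, 11013 and 21198 RPKM. The enzyme bco1, which cleaves beta-carotene, had 207, 313 and 259 RPKM. The transcobalamin-like gene tcnl, a relative of vitamin B12 carriers, had 3016, 2936 and 8180 RPKM and was highest in sham replicate 3. The selenium carrier sepp1a had 4242, 5054 and 6307 RPKM.

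Cytochrome P450 enzymes oxidise drugs, steroids and fatty acids. The 62 genes took 1.04, 1.31 and 1.01% of the reads. A single gene, cyp3a65, took on average 39.8% of the P450 reads and had 2678, 3278 and 2674 RPKM. In the same class cyp2k6 varied more, with 734, 226 and 1134 RPKM. Among conjugation enzymes, gstp1, a glutathione transferase, had 921, 1035 and 828 RPKM and the sulfotransferase sult6b1 had 1434, 643 and 501. The efflux pump abcg2a, which returns foreign compounds to the lumen, had 528, 590 and 565 RPKM.

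Cytosolic ribosomal proteins were the largest class by reads. Their 82 genes took 15.4, 12.3 and 15.6% of the reads. Because these genes are short, their share of summed RPKM was higher, at 29.4, 25.6 and 29.4%. The mean RPKM of 77 of them was over 1000, and rps2 led with 13827, 8164 and 14334. In 80 of the 82 genes sham replicate 2 was the lowest library, and in 77 when libraries were scaled by their totals. The median log2 ratio to sham replicate 2 was 0.56 for sham replicate 1 and 0.66 for sham replicate 3, on the CPM scale described below. On that scale, 3268 of all 10124 genes with a mean of at least 1 CPM were lowest in sham replicate 2. Translation factors were also lowest in sham replicate 2, with 4.96, 4.18 and 4.66% of the reads over 73 genes, and the elongation factor eef1a1l1 had 14136, 10370 and 14535 RPKM. In glycolysis and gluconeogenesis gapdh had 6852, 3411 and 6133 RPKM, again lowest in sham replicate 2. The gluconeogenic enzyme pck1 had another order, with 262, 1265 and 2714 RPKM. The actin gene actb2 had 7479, 7689 and 7902 RPKM, a narrow range on this scale.

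The 86 nuclear-encoded subunits of oxidative phosphorylation took between 1.13 and 1.49% of the reads, led by atp5g3b of ATP synthase at 2320, 1437 and 2161 RPKM. Cytosolic and mitochondrial chaperones took 2.07 ± 0.0795% (SD, n = 3), with hsp90ab1 at 3672, 3036 and 4047 RPKM. Folding and translocation genes of the endoplasmic reticulum took 0.704 ± 0.0395%, and all 55 had at least 1 RPKM in every library. The disulfide isomerase pdia3 led them with 391, 431 and 540 RPKM. In amino acid metabolism the leading gene was ahcy, of the methionine cycle, with 1983, 1228 and 1988 RPKM. Glutamate dehydrogenase glud1b followed with 1018, 1530 and 1410.

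Most of the barrier and defence genes named here lay below the leading genes but high in the ranking. For comparison, the median gene had 5.64, 5.58 and 5.55 RPKM. The intestinal claudin gene cldn15la, a tight junction component, had 780, 919 and 711 RPKM, and the cadherin cdh17 of intestinal epithelium had 770, 769 and 611. The 73 junction genes held 0.553 ± 0.103% of the reads (SD, n = 3). The galectin gene lgals2b, which encodes a sugar-binding protein, was among the leading genes. It reached 9931, 7574 and 9935 RPKM and ranked 12 by mean RPKM. The antioxidant class took 1.11, 1.59 and 1.33%. It was led by the selenium carrier sepp1a, with 4242, 5054 and 6307 RPKM, so its share is not that of peroxidases alone. The peroxidase genes gpx4b and prdx2 followed with 946, 952 and 1082 RPKM and 918, 707 and 1274 RPKM. Innate immune and inflammatory genes numbered 200 and took 0.337, 0.442 and 0.344%, led by the complement factor D gene cfd with 494, 485 and 745 RPKM and the chemokine ccl19b with 339, 495 and 193. Lysosomal genes took 0.329, 0.444 and 0.275%, with cd63 at 415, 541 and 438 RPKM. Antigen presentation and lymphocyte genes took 0.551, 1.08 and 1.21%, with sham replicate 1 lowest. In the metal-binding class the ferritin gene fth1a had 608, 759 and 672 RPKM.

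Of the 12398 genes, 2740 fell in 1 of the 41 function classes, and they held 69.97% of the reads on average. The genes outside the classes held 29.3, 33.4 and 27.4%. Their leader was LOC795545, with 8281, 14609 and 11501 RPKM, a row without an Ensembl identifier. The translationally controlled tumour protein tpt1 followed with 8853, 5447 and 8582 RPKM. The uncoupling protein gene ucp1 had 2936, 2804 and 3909 RPKM. Small classes by reads included collagens and matrix with 0.0734 ± 0.00643% (SD, n = 3) and the enteroendocrine peptides with 0.0346 ± 0.00347%. The globins, a sign of blood, held 0.00134 ± 0.000651%.

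**Figure D2:**
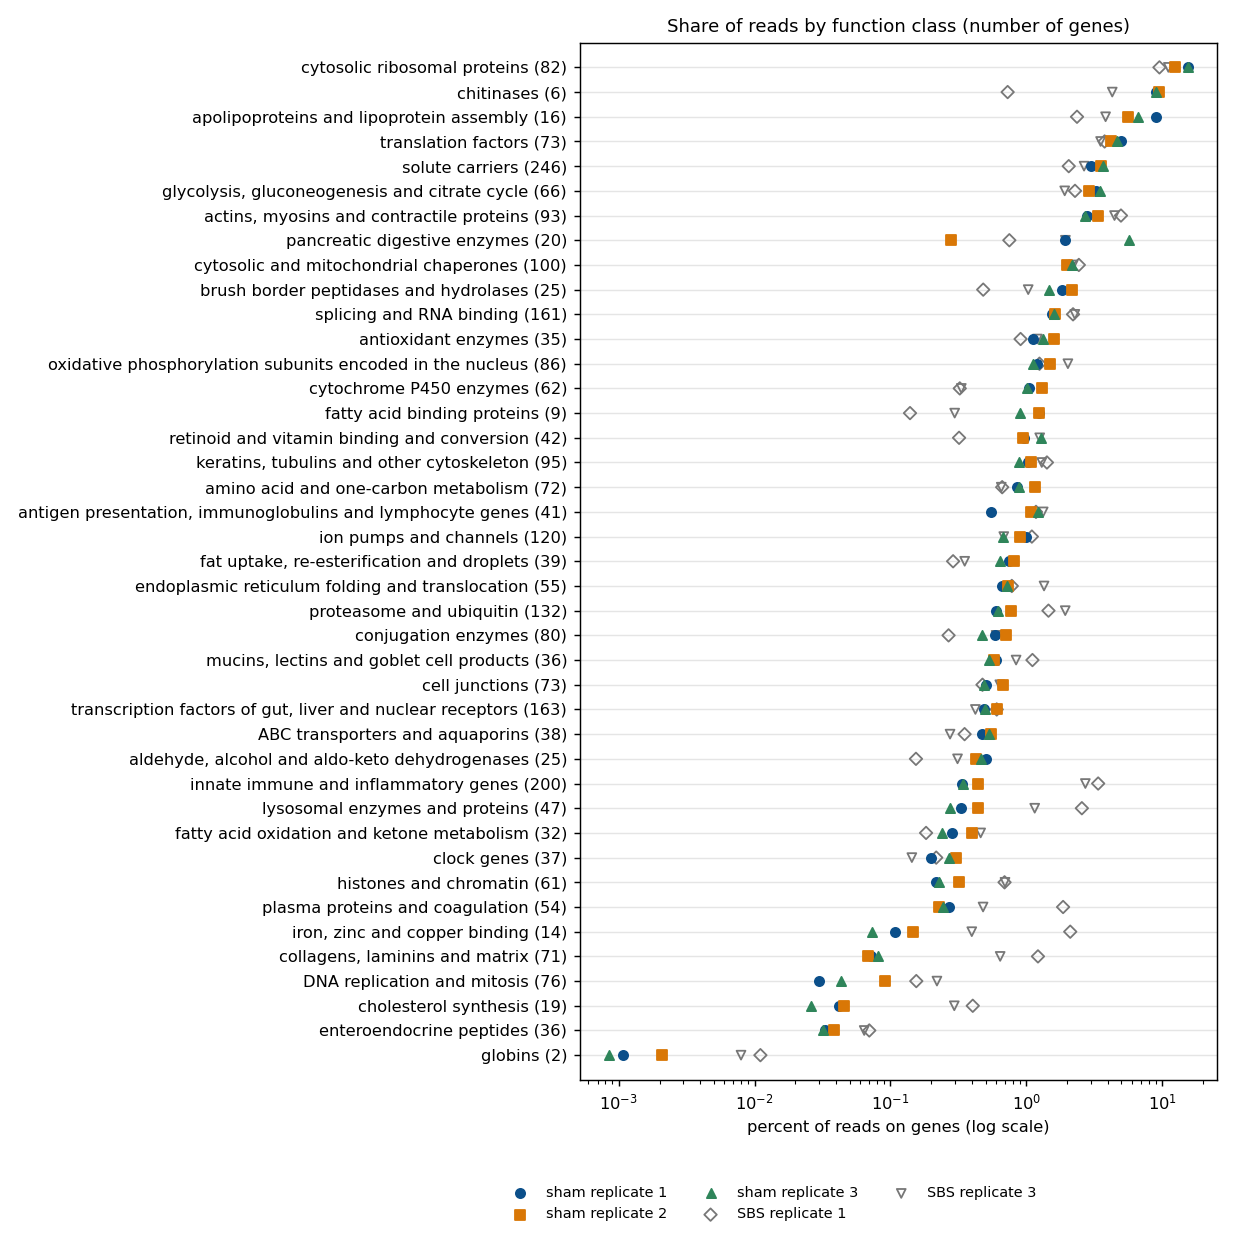
Percent of the reads on genes (log scale) in each function class, with the number of genes in brackets, for the 3 sham libraries (filled) and the 2 distinct SBS libraries (open). The sham points of most classes fall close together, and the widest sham spread is that of the pancreatic digestive enzymes, from 0.277 to 5.67%.

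The widest spread in share among the sham libraries was that of the exocrine pancreas, with the highest library at 20.4 times the lowest. The next were DNA replication and mitosis at 3.09 times and globins at 2.45. Genes for digestive enzymes of pancreatic acinar cells took 1.92% of the reads in sham replicate 1, 0.277% in sham replicate 2 and 5.67% in sham replicate 3. All 20 genes of the class had the same order, highest in sham replicate 3 and lowest in sham replicate 2. The ratio of sham replicate 3 to sham replicate 2 ran from 4.41 to 36.0 with a median of 23.0. Between sham replicates 3 and 1 it ran from 1.16 to 5.37 with a median of 3.39. The trypsin genes try, prss59.1 and prss59.2 had 3083, 355 and 10626 RPKM, 3099, 313 and 10461 RPKM, and 3809, 350 and 10736 RPKM. Near-identical trypsin copies may share reads, so their separate values are uncertain. The chymotrypsinogen gene ctrb1 had 2235, 390 and 7457 RPKM. The amylase gene amy2a had 1088, 104 and 1629 RPKM, and the carboxypeptidase B gene cpb1 had 695, 76.2 and 2747. The row zgc:92041, counted in this class by the list, was the highest of all with 5081, 712 and 21214 RPKM. Without zgc:92041 and zgc:112160, whose function the table does not name, the other 18 genes held 1.54, 0.209 and 4.18%. Islet markers were low, at a sum of 14.2, 9.64 and 66.6 RPKM. The islet and enteroendocrine lists share sst1.1, gcga, gcgb and isl1, so their sums are not separate. Of the 5 islet genes with a mean of at least 1 RPKM, 3 were highest in sham replicate 3, 1 in sham replicate 1 and 1 in sham replicate 2. On the CPM scale described below, 3164 of all 10124 genes with a mean of at least 1 CPM were highest in sham replicate 3. Insulin (ins) had 1.62, 0.189 and 36.7 RPKM, and the somatostatin gene sst1.1 had 0.0886, 0 and 14.0 RPKM from 2, 0 and 312 counts. The part of attached pancreatic tissue in these values was not tested.

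Cell type markers were read as summed RPKM over 21 fixed lists. The highest list was that of absorptive enterocytes. It included apoa1a, chia.3, chia.1 and chia.2, ranked 1, 2, 4 and 8 by mean RPKM. The lists were chosen with earlier results of these data known, so this first place is no test of tissue identity. Of the sum, apoa1a alone had 75077, 14689 and 44407 RPKM. Absorptive enterocyte markers summed to 212049, 137990 and 185087 RPKM over the 34 of 41 listed genes in the table, and 30 of them had at least 1 RPKM in all libraries. Each of the 5 defining enterocyte markers, fabp2, vil1, anpepb, rbp2a and slc15a1b, had at least 841 RPKM in every library. Markers of the ileal and lysosome-rich enterocytes summed to 506, 615 and 526 RPKM. That sum came mostly from lysosomal enzymes such as lgmn with 146, 223 and 199 RPKM. The macrophage list also holds lgmn, so the sums of these lists are not separate. The ileal bile acid transporter slc10a2 was near 0, with 2, 1 and 0 counts. Other listed ileal markers, cubn and amn, had no row in the table under those symbols.

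Of the secretory cells, goblet cells were represented by 4 of 15 listed markers, and the others had no row in the table under their listed symbols. Of the 4 defining goblet markers only 1, agr2, was in the table. The goblet gene agr2, needed for mucin folding, had 54.1, 119 and 61.8 RPKM. The membrane mucin muc13b had 764, 628 and 579 RPKM. Among enteroendocrine peptides, proenkephalin penka had 28.7, 50.1 and 27.7 RPKM and the ghrelin gene ghrl had 5.65, 5.70 and 22.6. The incretin gene gip had 8.10, 0.586 and 67.0 RPKM, the same order of libraries as the pancreatic enzymes. Enteroendocrine markers summed to 121, 132 and 180 RPKM, and tuft and best4 cell markers to 126, 95.4 and 70.2. Of the 9 tuft and best4 markers in the table, 4 had at least 1 RPKM in all libraries. Only 1 of their 2 defining markers was in the table, with a mean under 1 RPKM, so their sum came from other listed genes. Markers of progenitors and cycling cells summed to 229, 487 and 296 RPKM, and 14 of the 18 with a mean of at least 1 RPKM were lowest in sham replicate 1. On the CPM scale described below, 30.9% of all genes with a mean of at least 1 CPM were lowest in that library.

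The gut wall was represented mainly by smooth muscle, whose markers summed to 4593, 2412 and 5697 RPKM. The contractile gene tagln had 1767, 705 and 2354 RPKM, smooth muscle actin acta2 had 1695, 1066 and 2041, and desmin desmb had 183, 79.3 and 353. All 3 of these genes were lowest in sham replicate 2. Fibroblast, endothelial, neuronal and Cajal cell markers summed to between 26.6 and 173 RPKM in any library. Of the defining markers, 3 of 4 for enteric neurons and glia and 1 of 2 for Cajal cells had a mean under 1 RPKM. Skeletal muscle markers summed to 46.3, 42.4 and 40.5 RPKM, with the muscle creatine kinase ckma at 3, 1 and 0 counts.

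Among immune cells the macrophage list was highest, at 2133, 2826 and 5220 RPKM. Most of that sum came from the antigen presentation genes cd74a, with 803, 1170 and 2339 RPKM, and cd74b, with 1018, 1151 and 2437, which other cells express too. The macrophage pore protein mpeg1.1 had 26.6, 52.6 and 50.4 RPKM. Neutrophil markers summed to 102, 114 and 167 RPKM and lymphocyte markers to 93.3, 127 and 128. Erythrocyte markers summed to 20.4, 30.9 and 16.4 RPKM, and testis markers to between 7.22 and 9.40 RPKM. Hepatocyte markers summed to 129, 137 and 288 RPKM, with 7 of 31 genes at 1 RPKM or more in all libraries. The high sum in sham replicate 3 came from the retinol carrier rbp4, with 76.0, 69.4 and 237 RPKM. Of the 10 hepatocyte genes with a mean of at least 1 RPKM, 6 were highest in sham replicate 2 and 1 in sham replicate 3. Epidermal markers summed to 2946, 2669 and 2343 RPKM. The keratin gene krt4 made up most of that sum, with 2329, 1990 and 1698 RPKM, and it is also a keratin of the gut epithelium.

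**Figure D3:**
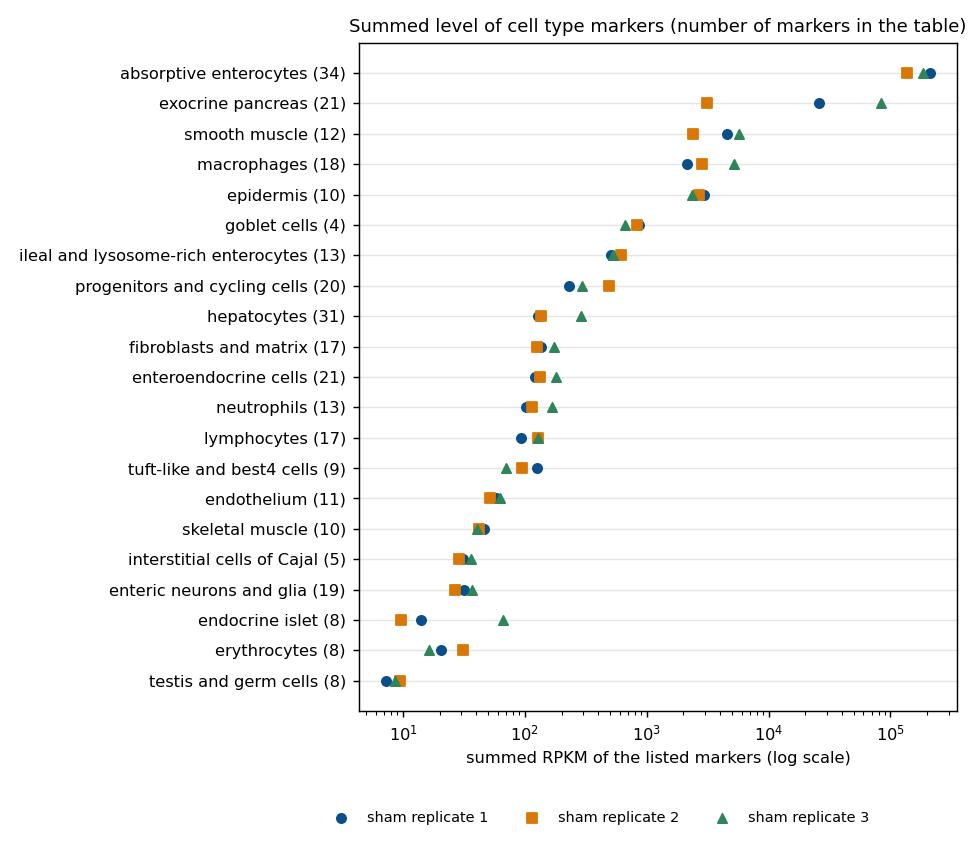
Summed RPKM (log scale) of the markers of each cell type that are in the table, with their number in brackets, for the 3 sham libraries. Enterocyte markers are highest in every library, and pancreatic markers run from 3152 RPKM in sham replicate 2 to 84427 in sham replicate 3.

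Regional identity was read from transcription factors named after their values were seen. The caudal-type factors cdx1a and cdx1b, which mark intestinal epithelium, had 105, 169 and 95.3 RPKM and 75.2, 76.7 and 55.0 RPKM. The hepatocyte nuclear factor hnf4a had 90.4, 130 and 170 RPKM. The gut endoderm factor gata6 was even, at 31.7, 32.3 and 33.3 RPKM. The nuclear receptor nr0b2a, a repressor in bile acid signalling, had 409, 593 and 481 RPKM and was the highest of its class of 163 genes. Hox genes specify position along the body axis. Of 23 genes in hox groups 1 to 8, 12 had at least 1 RPKM in all libraries, and all 23 summed to 54.5, 34.3 and 51.2 RPKM. None of the 12 genes in groups 9 to 13 did, and all 12 summed to 2.35, 1.18 and 3.24 RPKM, with 4 genes at no read in any sham library. The highest mean was 5.99 RPKM in the first set and 0.763 in the second.

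Spread among the sham libraries was measured as the SD of log2 CPM, with CPM the counts scaled to a common library size and by TMM (trimmed mean of M-values). The 10124 genes with a mean of at least 1 CPM had a median SD of 0.28, with quartiles at 0.17 and 0.45. An SD over 1 was reached by 565 genes, or 5.58% of those tested, and an SD over 2 by 119. The common biological coefficient of variation was 33.8%. The median absolute log2 difference was 0.31 between sham replicates 1 and 2, 0.30 between 1 and 3 and 0.35 between 2 and 3. Spread was smallest in genes at 10 to 100 CPM, where the median SD was 0.23, and it was 0.34 at 1 to 10 CPM and 0.35 over 1000 CPM. Counting error alone would give a median SD of 0.11 at 1 to 10 CPM and 0.005 over 1000 CPM. The spike-ins in the same bins had median SDs of 0.14 over 23 spike-ins and 0.02 over 4. Counting error and spike-ins cover technical noise only, whereas gene values come from separate samples.

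**Figure D4:**
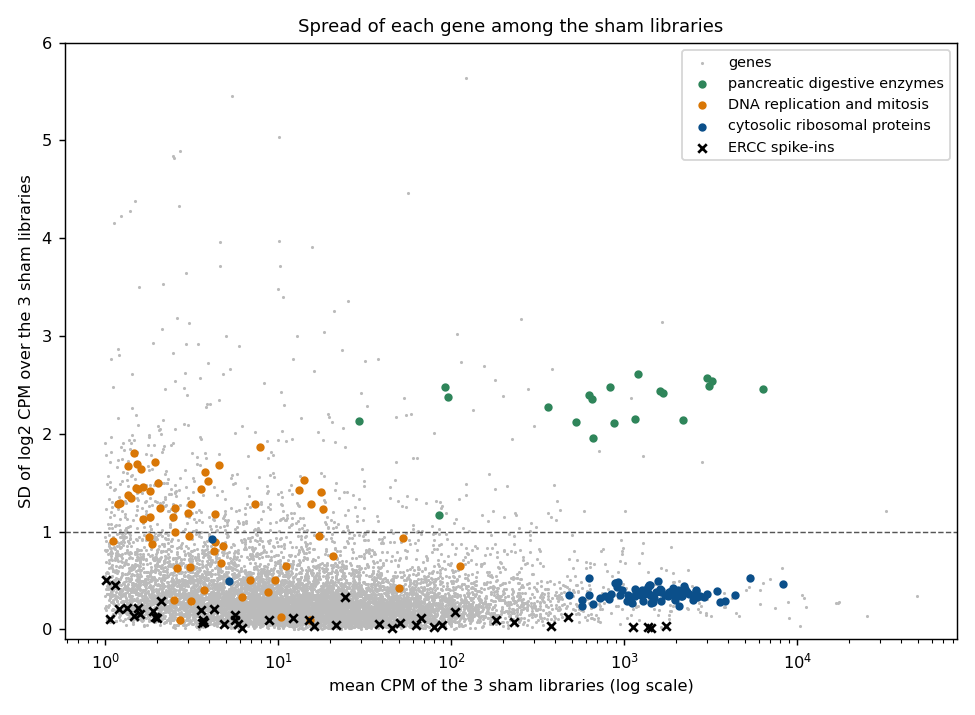
SD of log2 CPM over the 3 sham libraries against mean CPM (log scale), with 1 point per gene and crosses for ERCC spike-ins scaled to their own total. The dashed line marks an SD of 1, above which lie all 20 pancreatic enzymes and 33 of 60 DNA replication and mitosis genes, whereas most ribosomal proteins sit in a narrow band around their median of 0.36.

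Classes differed in how even they were. Nuclear-encoded subunits of oxidative phosphorylation had a median SD of 0.17 over 85 genes, none over 1. Of these 85 genes, 61 were highest in sham replicate 2, against 3577 of all 10124 genes with a mean of at least 1 CPM. The member cox4i1 was lowest there, at 515, 492 and 513 RPKM. Splicing and RNA binding genes had a median SD of 0.18 and proteasome and ubiquitin genes 0.19. At the other extreme, pancreatic enzymes had 2.39. DNA replication and mitosis genes had 1.17, and 54 of the 60 genes with a mean of at least 1 CPM were highest in sham replicate 2. Among all 10124 genes at that level, 3577 were. With libraries scaled by their totals, the count of DNA replication and mitosis genes was 58. Their median log2 ratio of sham replicate 2 was 2.07 over sham replicate 1 and 1.37 over sham replicate 3. The replication clamp pcna had 23.6, 83.5 and 33.9 RPKM, and the helicase subunit mcm5 had 1.76, 12.8 and 5.27. The proliferation marker mki67 had 0.280, 3.76 and 0.863 RPKM from 58, 801 and 177 counts. Sham replicate 2, the library with the lowest pancreatic and smooth muscle markers, thus had the highest levels of dividing-cell genes.

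The 15 most variable genes, chosen among those with a mean of at least 10 CPM, each differed between libraries by more than an order of magnitude. The widest was si:dkey-14d8.6 with 0.277, 7.23 and 716 RPKM, and its neighbour in name si:dkey-14d8.7 had 5.48, 1.59 and 127. Both lie on chromosome 4. A class I histocompatibility gene, mhc1uba on chromosome 19, had 37.5, 601 and 2771 RPKM. Such genes differ between fish in sequence, and alignment of their reads was not examined here. The complement regulator cd59 had 9.66, 0.0274 and 27.3 RPKM from 343, 1 and 958 counts. The keratin gene krt96 had 96.7, 0.357 and 59.7 RPKM, and ggact.2 had 15.3, 0.122 and 12.7. These 3 were nearly silent in sham replicate 2 alone. In sham replicate 1 alone, bnip4 was low with 0.127, 14.8 and 18.3 RPKM, as was fkbp5, a co-chaperone of steroid receptors, with 4.16, 162 and 217. In sham replicate 3 alone, the biotinidase gene btd was low with 14.0, 8.42 and 0.120 RPKM, as was si:dkey-266f7.5 with 39.3, 24.5 and 1.02. The glucuronosyltransferase ugt5a2 was high in sham replicate 3 only, with 0.636, 0.633 and 23.4 RPKM.

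**Figure D5:**
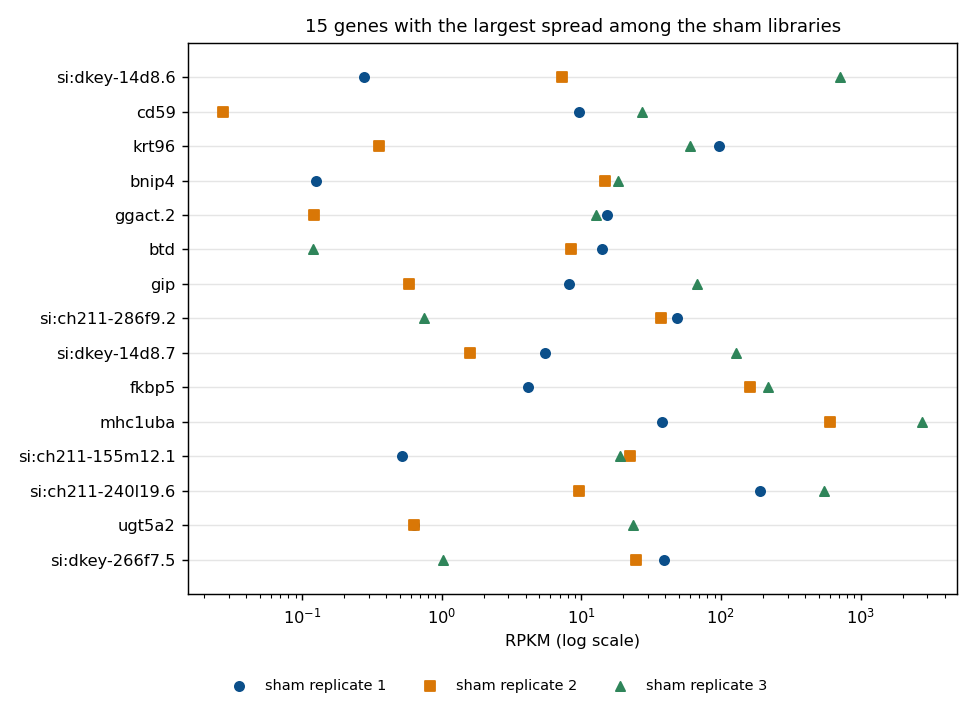
RPKM (log scale) of the 15 genes with the largest SD of log2 CPM among the sham libraries, with 1 point per library. No single library is the low one throughout, as krt96 falls to 0.357 in sham replicate 2, bnip4 to 0.127 in sham replicate 1 and btd to 0.120 in sham replicate 3.

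Among the 565 genes with an SD over 1, 132 were highest in sham replicate 1, 196 in sham replicate 2 and 237 in sham replicate 3. The order 2, 3, 1 from high to low was seen in 144 of them (25.5%), and the order 3, 1, 2, that of the pancreatic enzymes, in 137 (24.2%). Over all 10124 genes these orders made up 17.0 and 17.3%. The pancreatic class supplied 20 of the 565 genes and DNA replication and mitosis 33.

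The 15 most stable genes had an SD under 0.01, less than the counting error of a typical gene at 10 to 100 CPM, which was 0.04. They are the extreme of 5818 genes and not a separate group. They included the mitochondrial flavoprotein aifm1 with 55.3, 55.7 and 55.2 RPKM, the mitochondrial fusion protein opa1 with 21.5, 21.7 and 21.8, and sufu, a regulator of Hedgehog signalling, with 5.86, 5.93 and 5.86. Common reference genes for qPCR spread unequally. The SD of log2 CPM was 0.04 for actb2, 0.07 for ppiab, 0.17 for tbp, 0.28 for eef1a1l1, 0.40 for rpl13a and 0.55 for gapdh. Scaled by library totals the order changed, to 0.17 for actb2, 0.19 for ppiab, 0.20 for tbp, 0.11 for eef1a1l1, 0.24 for rpl13a and 0.39 for gapdh. The most even of these genes was thus actb2 with TMM and eef1a1l1 with library totals. The paralog eef1a1l2 had 255, 7.20 and 14.5 RPKM, an SD of 2.73.

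The sham profile was set beside the SBS libraries only by class. The sham and SBS libraries did not overlap in 30 of 41 classes (73.2%), of which 13 were lower and 17 higher in SBS. With 3 libraries against 2, the smallest two-sided p of the exact permutation test is 0.2, and the smallest Benjamini-Hochberg adjusted p over the 41 classes was 0.273, so no class could pass a threshold of 0.05. Chitinases, fatty acid binding proteins and P450 enzymes were among the classes higher in sham. Chitinases took 9.14 ± 0.240% in sham (SD, n = 3) against 0.727 and 4.28% in the SBS libraries. Fatty acid binding proteins took 1.12 ± 0.193% against 0.139 and 0.297%, and P450 enzymes 1.12 ± 0.163% against 0.323 and 0.332%. Innate immune genes took 0.374 ± 0.0584% in sham against 3.37 and 2.71%, and collagens and matrix 0.0734 ± 0.00643% against 1.22 and 0.641%. Pancreatic enzymes overlapped, with SBS libraries at 0.749 and 1.93% inside the sham range of 0.277 to 5.67%. Genes outside the classes took 29.3, 33.4 and 27.4% in sham against 42.9 and 37.8% in SBS. Shares are parts of a fixed total, so a larger share of some classes, or of the genes outside them, lowers that of the others.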

How the data were processed

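Full-thickness proximal intestine was taken from sham and SBS zebrafish, and stranded RNA libraries were sequenced with ERCC spike-ins. Per the labels' processing notes, the authors used FastQC, Trimmomatic, STAR, HTSeq and edgeR. The notes name GRCz10 (danRer10) and the methods name danRer7, so no coordinates are given and chromosomes are those of the deposited annotation. The authors deposited raw read counts per gene and RPKM values made from counts, gene length and a scaled library size. For sham that size was 32853339, 33733374 and 32505280, smaller than the reads counted. The gene length is another deposited column. Log2 fold changes, average levels, likelihood ratios, p-values and FDR of the authors' own comparison were also deposited and were not used. Of the gene rows, 162 lack an Ensembl identifier and 93 share one with another row.

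Genes were assigned by symbol to the first matching function class, and shares are percents of reads on genes. Spread was computed with edgeR 4.0.16 in R 4.3.3 (TMM factors 0.965, 1.15 and 0.904 over the 3 sham libraries, prior count 0.5, mean of at least 1 CPM), with DESeq2 1.42.0 size factors as an alternative. Python 3.11.15, pandas 2.3.3 and SciPy 1.17.1 were used for the rest. The spread script was tested on simulated data. Depth was 38728394 to 47142289 reads, and counting error is given as the SD expected from the counts. Genes named by rule were the 30 with the highest mean RPKM, the 3 highest of each class and marker list, the defining markers, and the 15 most and 15 least variable genes with a mean of at least 10 CPM. Some genes that the rule selects are not reported here. Further genes were named for their role after their values were seen: alpi.2, amy2a, apoa2, apoa4b.1, apobb.1, aqp10a, bco1, cdx1a, cdx1b, chia.4, chia.5, chia.6, clca1, cox4i1, cpb1, cry1aa, desmb, dgat1a, dgat2, dpp4, dusp1, eef1a1l2, enpp7.1, foxo3b, gata6, ghrl, hmgcra, igfbp1a, klf9, mcm5, mep1a.1, mhc1uka, mhc1zda, mhc1zka, mtp, nr1d1, pck1, per1b, ppiab, prss59.1, rpl13a, slc13a1, slc34a2a, slc6a19a.1, slc6a19b, tbp, tsc22d3, ucp1 and zgc:112160. The members, classes and lists were chosen with earlier results of these data known. Alternatives were other RPKM limits, rankings, normalizations, filters, leaving out each library, and, chosen after seeing the data, class shares without the pancreatic enzymes.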

Additional observations from a re-analysis of the deposited data

How the results depend on the processing

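Counts of detected genes, the genes holding 50% of reads and the number of classes without overlap moved by less than 1.5 times under every alternative run. Of the top 50 genes by mean RPKM, 30 remained under CPM without length, and 45 to 48 remained without 1 library. The share of reads in any class, 69.97%, became 76.6% of summed RPKM and 62.5% without the 10 genes with most reads. By summed RPKM the share was 0.896% for brush border enzymes, 6.83% for chitinases, 28.1% for ribosomal proteins and 2.35% for solute carriers. Without those 10 genes it was 1.43% for apolipoproteins, 2.26% for brush border enzymes, 0.0178% for chitinases, 18.1% for ribosomal proteins and 2.93% for solute carriers. Without pancreatic enzymes chitinases held 9.39%, an alternative chosen after seeing the data. Of 35 other classes, 29 moved by more than 1 SD by summed RPKM, 28 without those 10 genes and 1 without pancreatic enzymes. Without any 1 library the number was 0. That number was fixed in advance, since leaving out 1 of 3 libraries cannot move their mean by their own SD. The median SD of 0.28 became 0.34 with library totals only, 0.24 with a filter of 10 CPM and 0.32 with no filter beyond 1 count. Library totals in place of TMM moved the median log2 ratio of all genes from -0.01 to 0.23 for sham replicate 2 over 1, and from 0.04 to 0.37 for 2 over 3. Leaving out 1 library gave 0.21 to 0.24, from 2 libraries each. The coefficient of variation was 30.2% with the 10 CPM filter. Genes with an SD over 1 numbered 210 with that filter and 1336 with none, against 565. The SBS minus sham difference in pancreatic share, -1.28 percentage points, was 0.243 without sham replicate 3. Its range over single libraries left out was -2.45 to 0.243. No alternative without mitochondrially encoded transcripts was possible, since 0 genes of that kind are in the table.

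With the replicate block, 36 classes differed in 1 direction within both same-numbered pairs, against 30 without overlap. The library called SBS replicate 1 may belong to SBS replicate 2, so its pair with sham replicate 1 is uncertain. Same-numbered libraries share only a number. Their deviations from the group means correlated at -0.153 and -0.157 across 9382 genes. With 2 SBS libraries, the deviations of one are the negative of those of the other. These values therefore cannot show whether the samples were paired. At the depth of these libraries, genes at 1 to 10 CPM had a median counting SD of 0.11. Smaller differences among them cannot be told from counting error. The median SD among the sham libraries in that range was larger, at 0.34, and genes under 1 CPM were left out.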

Other observations

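Some genes known to respond to glucocorticoids differed among the sham libraries and others were even. Of 16 such genes, listed after values had been seen, 11 were lowest in sham replicate 1 by RPKM. The list included fkbp5, already named above as low there, so the count is not a test. Some of the 11 differed little, such as dusp1. By CPM, 30.9% of all genes with a mean of at least 1 CPM were lowest in sham replicate 1. Of the 565 genes with an SD over 1, 244 were. The zinc finger factor klf9 had 4.98, 18.7 and 130 RPKM in sham replicates 1, 2 and 3. The leucine zipper gene tsc22d3 had 163, 412 and 600 RPKM, the factor cebpd 124, 178 and 495, and foxo3b 3.07, 6.97 and 17.2. Even members were the phosphatase gene dusp1 with 171, 177 and 205 RPKM, per1b with 19.3, 16.3 and 16.9 and igfbp1a with 6.57, 6.10 and 4.62. The gene mt2, a metal-binding metallothionein, had another order, with 1044, 1330 and 302 RPKM. Clock genes had a median SD of log2 CPM of 0.22 over 33 genes, against 0.28 over all genes. However, 3 of them (9.09%) had an SD over 1, against 5.58% of all genes. Among the most even were cry1aa, a repressor of the clock, at 39.2, 38.2 and 39.5 RPKM and nr1d1 at 65.4, 68.6 and 71.6. Against these, nr1d2a had 37.4, 160 and 202 RPKM and nfil3-6 had 26.5, 125 and 184, both lowest in sham replicate 1. Others went the other way, such as per3 with 32.9, 23.7 and 14.4 RPKM. Of 31 clock genes listed after values had been seen, 11 were lowest and 10 highest in sham replicate 1 by RPKM.

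Of 12 listed histocompatibility and antigen presentation genes, 9 were lowest in sham replicate 1 by RPKM, beside the same 30.9% of all genes by CPM. These genes too were listed after values had been seen, so the count is not a test. Without cd74a and cd74b, which belong to class II presentation, the count was 7 of 10. Others went another way, with mhc1zda at 15.9, 6.35 and 7.62 RPKM, mhc1zka at 0.712, 0.180 and 0.293, and mhc1uka at 133, 313 and 83.1. Beta-2-microglobulin b2m had 1834, 2563 and 2233 RPKM. The yolk precursor vitellogenin vtg1, a protein of the female liver, had 16.8, 71.6 and 55.3 RPKM in these male fish. The calcium-activated chloride channel regulator clca1 had 1251, 111 and 280 RPKM, highest in sham replicate 1.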
